A study of Mus musculus with 13 samples.

Results

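Nampt and 6 sirtuin genes (Sirt1, Sirt2, Sirt3, Sirt5, Sirt6 and Sirt7) were followed in whole back skin through 48 h of light and dark cycles. For each gene the probe set assigned to that gene alone was used, and where a gene had several the one with the highest mean. All 7 genes had exactly 1 such probe set, out of 19938 genes with at least 1, and none lay in a probe set shared with another gene. All 7 were bright enough to pass the filter on dim genes and belong to the 14953 genes tested. The skin came from male C57Bl6 mice at postnatal day 46 whose hair follicles were at rest (telogen). Mice ate standard chow freely, light and dark alternated every 12 h, and the labels name no mutation or treatment. Time of day is given as ZT, the number of hours since lights on, with lights off at ZT12. Skin was taken every 4 h, from hour 2 to hour 50, and each of the 13 arrays received equal parts of RNA from 3 mice, so that 6 arrays fell in the dark (2 each at ZT14, ZT18 and ZT22) and 7 in the light (3 at ZT2, 2 each at ZT6 and ZT10). Errors given here are therefore those between pools, not between single mice. All 13 pools held whole skin, in which fewer cells of a type and less RNA per cell cannot be told apart.

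NAD is the coenzyme that carries electrons in metabolism, and sirtuins use it up when they remove acyl groups from proteins. Each such reaction releases nicotinamide, and Nampt encodes the enzyme that starts the rebuilding of NAD from nicotinamide, the rate-limiting step of the salvage pathway. In mouse liver and fat, Nampt is a known target of the circadian activator CLOCK:BMAL1, and SIRT1 in turn acts on clock proteins. Sirtuins differ in place and substrate: SIRT1, SIRT6 and SIRT7 work mainly in the nucleus, SIRT2 mainly in the cytoplasm, and SIRT3 and SIRT5 in mitochondria. NAD itself and sirtuin activity were not measured here.

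The stretch just before the transcription start is shown for Nampt, because it sets the supply of the coenzyme, for Sirt1, because it held the E-box of the clock at 2 places, and for Sirt5, because it had the smallest p of the 7 genes in the 24 h fit and between dark and light. RefSeq promoter entries were found for all 7 genes (9 entries, build GRCm38.p6), and the 250 bases before the start were searched on both strands (CACGTG reads the same on both). The motifs were CACGTG (the E-box bound by CLOCK:BMAL1), CACGTT (a variant E-box), TTATGTAA (the D-box bound by DBP, TEF and HLF) and AGGTCA (the half-site of REV-ERB and ROR receptors, shared by many nuclear receptors). Capitals mark CACGTG and AGGTCA, and TGACCT where AGGTCA lies on the other strand. The windows are chr12:32820085-32820334 on the plus strand for Nampt, chr10:63339036-63339285 on the minus strand for Sirt1 and chr13:43365285-43365534 on the plus strand for Sirt5, each written 5′ to 3′ along the gene.
Nampt: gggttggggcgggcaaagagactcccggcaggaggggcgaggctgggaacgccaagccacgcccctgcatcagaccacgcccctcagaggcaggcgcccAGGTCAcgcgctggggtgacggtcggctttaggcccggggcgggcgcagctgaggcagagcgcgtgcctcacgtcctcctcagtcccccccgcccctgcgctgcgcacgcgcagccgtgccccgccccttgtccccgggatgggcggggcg
Sirt1: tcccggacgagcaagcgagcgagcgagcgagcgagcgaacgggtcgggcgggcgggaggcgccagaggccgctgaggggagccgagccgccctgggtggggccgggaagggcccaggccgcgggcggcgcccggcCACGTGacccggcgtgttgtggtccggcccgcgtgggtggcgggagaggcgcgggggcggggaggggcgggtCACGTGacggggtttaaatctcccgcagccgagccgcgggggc
Sirt5: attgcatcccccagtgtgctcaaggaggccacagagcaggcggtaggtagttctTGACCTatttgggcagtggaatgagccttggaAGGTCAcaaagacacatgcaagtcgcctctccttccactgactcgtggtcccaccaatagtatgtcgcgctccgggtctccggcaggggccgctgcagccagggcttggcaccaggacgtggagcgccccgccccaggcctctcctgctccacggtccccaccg
The Sirt1 window held CACGTG at 2 places, 115 to 110 and 43 to 38 bases before the start. Of 32851 promoter windows of the same length, 6.02% held CACGTG and 0.429% held it more than 1 time. G and C made up 79.2% of the Sirt1 window, 75.6% of the Nampt window and 62.8% of the Sirt5 window. The median over all windows was 52.4%, so the shares given here are not those of windows of like composition. AGGTCA occurred 1 time in the Nampt window, 151 to 146 bases before the start, and at 2 places in the Sirt5 window, 196 to 191 and 164 to 159 bases before the start. It occurred in 14% of all windows and more than 1 time in 1.36%. CACGTT and TTATGTAA, present in 3.85% and 0.819% of all windows, were in none of the windows of the 7 genes, and the windows of Sirt2, Sirt3, Sirt6 and Sirt7 held none of the 4 motifs. These matches describe the letters of the windows only.

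Nampt was brightest at the end of the light phase on both days. Its intensity was 1884, 1868 and 1776 at ZT2, 1817 and 2006 at ZT6, and 2484 and 2461 at ZT10. In the dark it was 2353 and 2204 at ZT14, 1800 and 1744 at ZT18, and 2314 and 1602 at ZT22. Both ZT10 arrays lay above both ZT14 arrays, and the later neighbours in the order of the means (ZT22, ZT6, ZT2, ZT18) overlapped. Here and below, how often times of day do not overlap was not counted over all genes. With so few arrays per time, such statements only describe the values. The arrays of ZT22 were far apart, with that of the second day the lowest of all 13 and that of the first day near the level of ZT14. A 24 h curve fitted to all 13 arrays ran from trough to peak by 0.39 ± 0.12 log2 units (SE, n = 13), which is 1.31-fold, and peaked 11.1 ± 1.22 h past lights on. In the F test of the curve by limma, Nampt had an unadjusted p of 0.0242 and a Benjamini-Hochberg adjusted p of 0.216 over all genes, and so did not pass the threshold of 0.05.

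The ZT22 pools disagreed, and nothing here tells which was the odd one. That of the second day stood out in growing hair shaft markers, as given below. That Nampt did not pass depended on the array of ZT22 on the first day. That array lay near the trough of the fitted curve but well above it. Leaving it out therefore enlarges the curve by construction and is no support for a rhythm. Without it, the trough-to-peak difference of Nampt was 0.54 ± 0.09 in log2 (SE) and its adjusted p was 0.0267 (limma), while the number of genes called was 289. Leaving out any of the other 12 arrays gave differences between 0.34 and 0.42 and adjusted p-values between 0.216 and 0.383. That array and the array of ZT2 on the first day are also those in which Sirt2 was low, as described below. Without both, in an alternative chosen after seeing the data, the difference was 0.57 ± 0.09 (SE) with an adjusted p of 0.0135, and 773 genes were called.

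**Figure D1:**
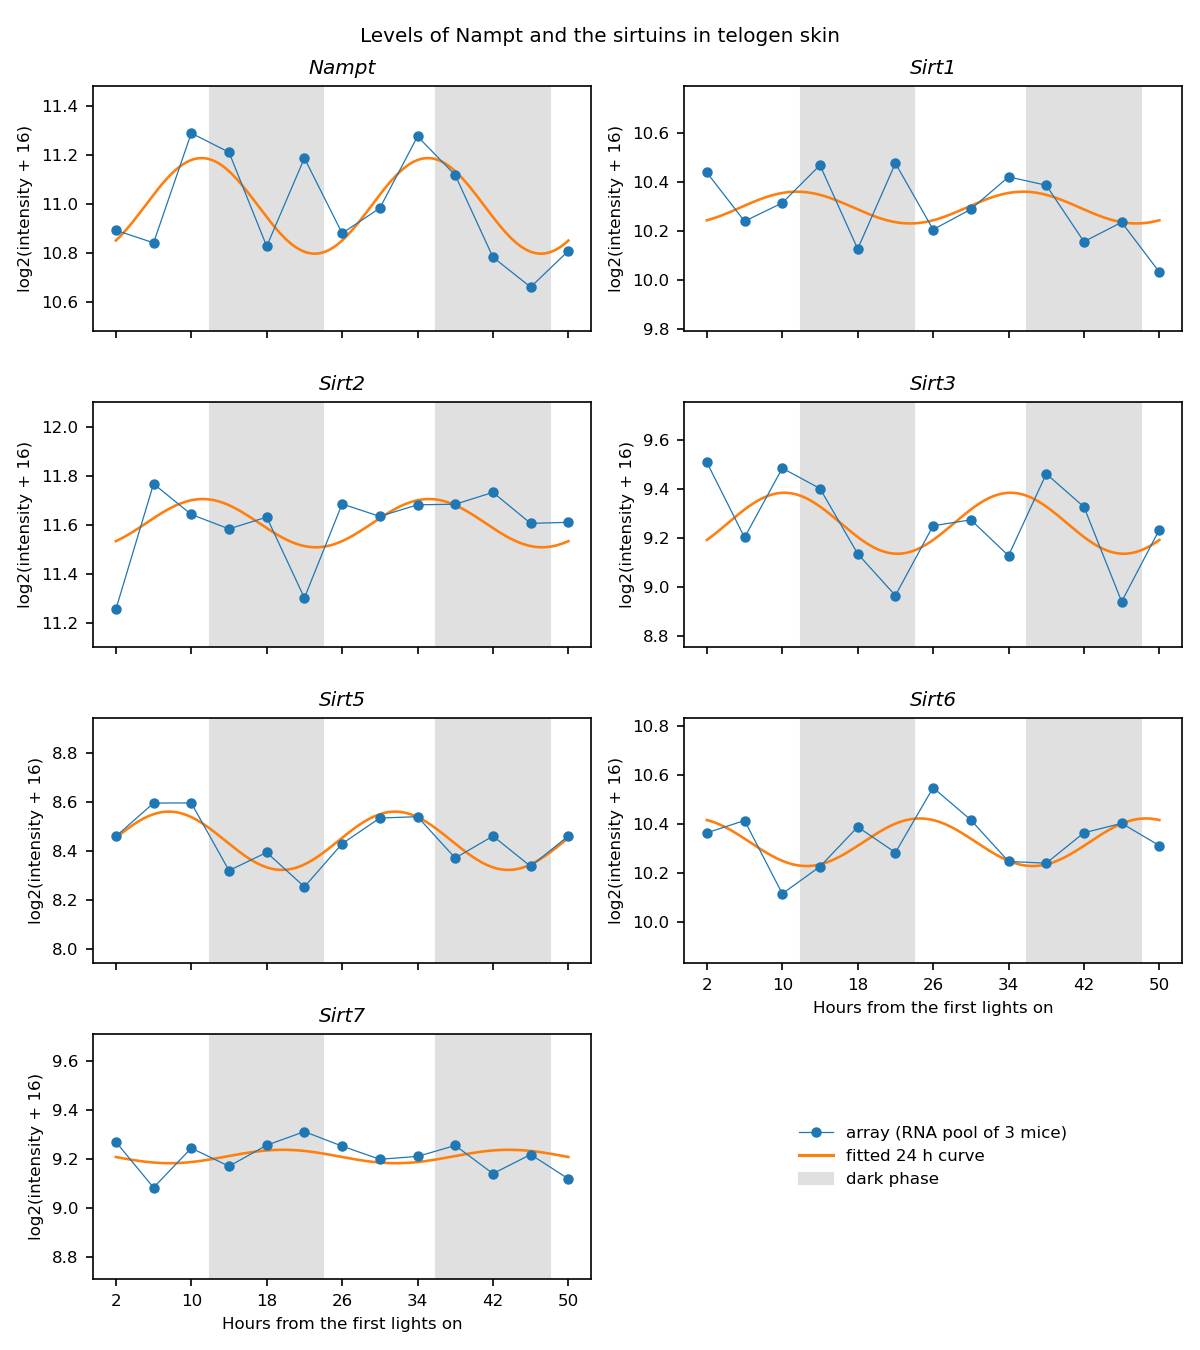
Level of each gene, as log2(intensity + 16), against hours from the first lights on. Points are the 13 arrays, orange lines the fitted 24 h curves, grey the dark phases, and each vertical axis spans 1 log2 unit. Nampt is high at hours 10 and 34, with a single high point at hour 22, and Sirt2 has low points at hours 2 and 22.

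Sirt5, a mitochondrial enzyme that removes succinyl, malonyl and glutaryl groups, had its 4 brightest arrays in the middle and late light phase. Its intensity was 336, 329 and 336 at ZT2, 371 and 355 at ZT6, and 371 and 356 at ZT10. In the dark it was 304 and 315 at ZT14, 320 and 336 at ZT18, and 289 and 307 at ZT22. Arrays of ZT6 and ZT10 lay above all arrays of ZT2, and those of ZT18 above those of ZT14, whereas ZT2 and ZT18 overlapped, as did ZT14 and ZT22. Repeats of a time of day were close, with an SD within times of 0.0398 in log2, smaller than in all but 0.495% of the genes tested, against a median of 0.139 over all genes. The fitted difference was 0.24 ± 0.07 in log2 (SE, n = 13), or 1.18-fold, with the peak at 7.62 ± 1.08 h, an unadjusted p of 0.0186 and an adjusted p of 0.195 (limma). It did not pass under any of the 24 alternatives in which it was tested, where its adjusted p ranged from 0.119 to 0.513.

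Sirt1, the nuclear deacetylase best known for its ties to the clock, had no time of day that stood apart. Its intensity was 1372, 1165 and 1031 at ZT2, 1193 and 1235 at ZT6, and 1257 and 1355 at ZT10. In the dark it was 1401 and 1323 at ZT14, 1102 and 1125 at ZT18, and 1408 and 1190 at ZT22. Neighbours in the order of the means overlapped throughout, and the 3 arrays of ZT2 spanned nearly the whole range of the gene. The fitted difference was 0.13 ± 0.11 in log2 (SE), with an adjusted p of 0.683 (limma). This interval leaves room for a curve as large as that of Sirt5.

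Sirt6, a chromatin-bound deacetylase of histone H3, was lowest where Nampt was highest. Its intensity was 1301, 1481 and 1255 at ZT2, 1348 and 1350 at ZT6, and 1093 and 1199 at ZT10. In the dark it was 1181 and 1193 at ZT14, 1324 and 1302 at ZT18, and 1230 and 1337 at ZT22. The lowest means were those of ZT10 and ZT14, and both arrays of ZT22 lay above both of ZT14. The fitted difference was 0.19 ± 0.08 in log2 (SE), or 1.14-fold, with its peak at 0.576 ± 1.61 h and an adjusted p of 0.308 (limma).

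Sirt7, a nucleolar deacetylase linked to ribosomal RNA transcription, was the flattest of the 7. Its intensity ran from 526 at hour 6 to 619 at hour 22, a ratio of 1.18, and its mean was 549 ± 31.9 at ZT6 and 599 ± 28.2 at ZT22 (SD, n = 2 each). The means of all other times of day lay between these, and all neighbours overlapped. The fitted difference was 0.05 ± 0.07 in log2 (SE), with an adjusted p of 0.843 (limma).

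Sirt2, the cytoplasmic sirtuin whose substrates include tubulin, stood apart through 2 arrays. Its intensity was 2430, 3279 and 3113 at ZT2, 3473 and 3166 at ZT6, and 3183 and 3272 at ZT10. In the dark it was 3056 and 3277 at ZT14, 3159 and 3390 at ZT18, and 2511 and 3104 at ZT22. The arrays of ZT2 and ZT22 on the first day were the 2 lowest, and the other 11 overlapped across all times of day. The fitted difference was 0.20 ± 0.11 in log2 (SE), with an adjusted p of 0.474 (limma). Without those 2 arrays it was 0.03 ± 0.06 (SE). The same 2 arrays had the lowest sums of macrophage and dendritic cell markers (5 of 5 measured, none at 0), 10534 for ZT2 and 13965 for ZT22, against 14630 to 17507 in the rest. They also had the lowest sums of neutrophil markers (6 of 6 measured, none at 0), 773 and 922 against 1052 to 1319 in the rest, and of growing hair shaft markers, 3822 and 4521 against 4567 to 43365 in the rest. These lists are named because both arrays were lowest in them, which held in no other list. The first ZT2 array had the highest endothelium sum, 5891. It had the lowest fibroblast and adipocyte sums, 48195 and 17824, where the first ZT22 array had 66886 and 21565. For correlations, the mean log2 level of the tested markers of a list was used in place of the sum. Over the 13 arrays Sirt2 and the macrophage and dendritic cell level had Pearson's r of 0.754 (permutation p = 0.00320, adjusted p = 0.134). Spearman's rho was 0.681 (permutation p = 0.0126, adjusted p = 0.354). Without the 2 arrays farthest from the median of Sirt2, the first of ZT2 and the first of ZT22, r was 0.293, so that r depended on that pair. Sirt2 and the neutrophil level, from the 3 of its markers that were tested, had an r of 0.754 as well (permutation p = 0.00950, adjusted p = 0.199). Their rho was 0.137 (permutation p = 0.653, adjusted p = 0.856), and r was -0.383 without the same 2 arrays. With the growing hair shaft level r was 0.186 (permutation p = 0.390, adjusted p = 0.855). With the endothelium level r was -0.593 (permutation p = 0.0329, adjusted p = 0.394), and 0.0923 without the same 2 arrays. The part of these markers' cells in the low Sirt2 values was not tested.

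Sirt3, the main deacetylase of mitochondrial proteins, was lowest at ZT22 on both days. Its intensity was 712, 592 and 586 at ZT2, 573 and 603 at ZT6, and 700 and 543 at ZT10. In the dark it was 660 and 689 at ZT14, 546 and 626 at ZT18, and 483 and 475 at ZT22. Both arrays of ZT22 lay below all others. Both of ZT14 lay above all arrays of ZT6 and ZT18, while neighbours in the order of the means (ZT14, ZT2, ZT10, ZT6, ZT18) overlapped. The fitted difference was 0.25 ± 0.13 in log2 (SE), or 1.19-fold, with the peak at 10.2 ± 1.95 h and an adjusted p of 0.435 (limma).

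Of the 7 genes, 0 were called rhythmic by limma, where 2.13% of all genes tested were (318 of 14953, or 211 with collection day as a block). At an unadjusted p under 0.05 the count was 2 of 7, Nampt and Sirt5, against 18.5% of all genes. The median fitted fold was 1.15 over the 7 genes and 1.14 over all genes. With time of day as 6 free levels in place of the curve, an alternative chosen after seeing the data, 0 of 7 were called against 0.294% of all genes, and Nampt and Sirt5 had unadjusted p-values of 0.0368 and 0.0369, under a limit of 0.05 that 8.94% of all genes met. The clock itself was strongly rhythmic in the same arrays: of 18 clock genes tested, 16 were called. These were Arntl, Clock, Per1, Per2, Per3, Cry1, Cry2, Nr1d1, Nr1d2, Ciart, Bhlhe40, Bhlhe41, Dbp, Tef, Hlf and Nfil3, with folds from 1.61 for Clock to 20.8 for Dbp, while Arntl2 and Rora were not called. Nr1d1, which encodes REV-ERB alpha, was highest at 7.54 h (8.52-fold), and the repressor gene Per2 at 13.1 h (9.71-fold). The fit of none of the 7 genes passed. The fitted peak of Nampt lay between these, as did those of Sirt1, Sirt2 and Sirt3, with an SE of the peak of 3.30, 2.18 and 1.95 h, and that of Sirt5 lay within its SE of the peak of Nr1d1.

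**Figure D2:**
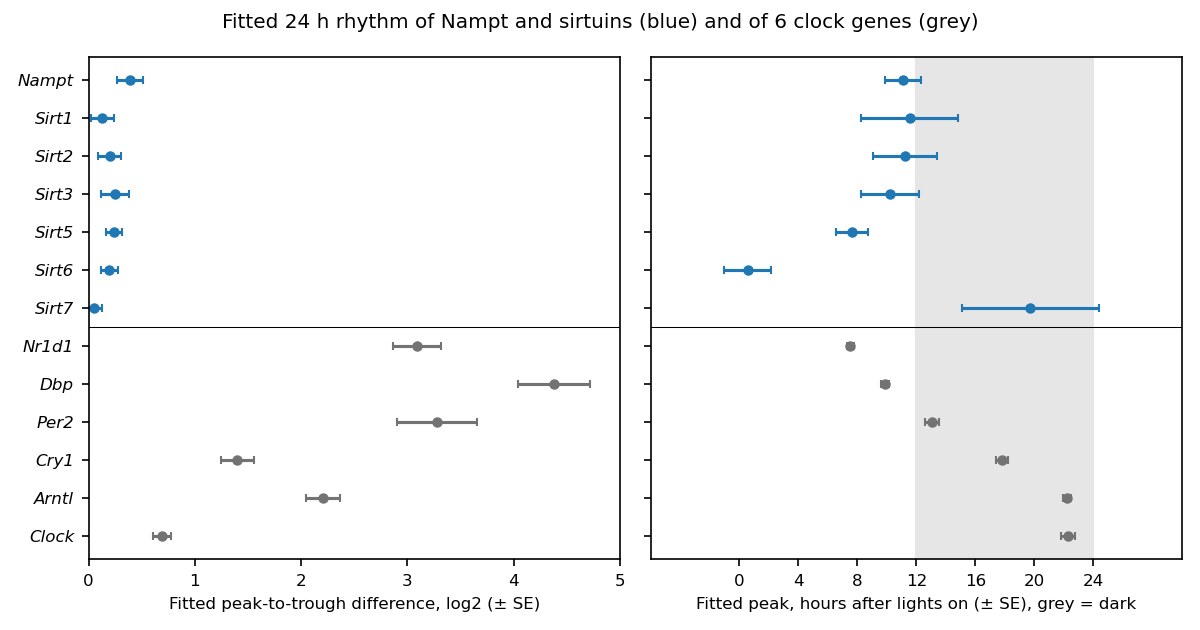
Fitted peak-to-trough difference in log2 (left) and fitted time of the peak in hours after lights on (right), both ± SE over 13 arrays, for the 7 genes in blue and 6 clock genes in grey. The differences of the 7 genes lie between 0.05 and 0.39, those of the clock genes between 0.69 and 4.38.

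**Figure D3:**
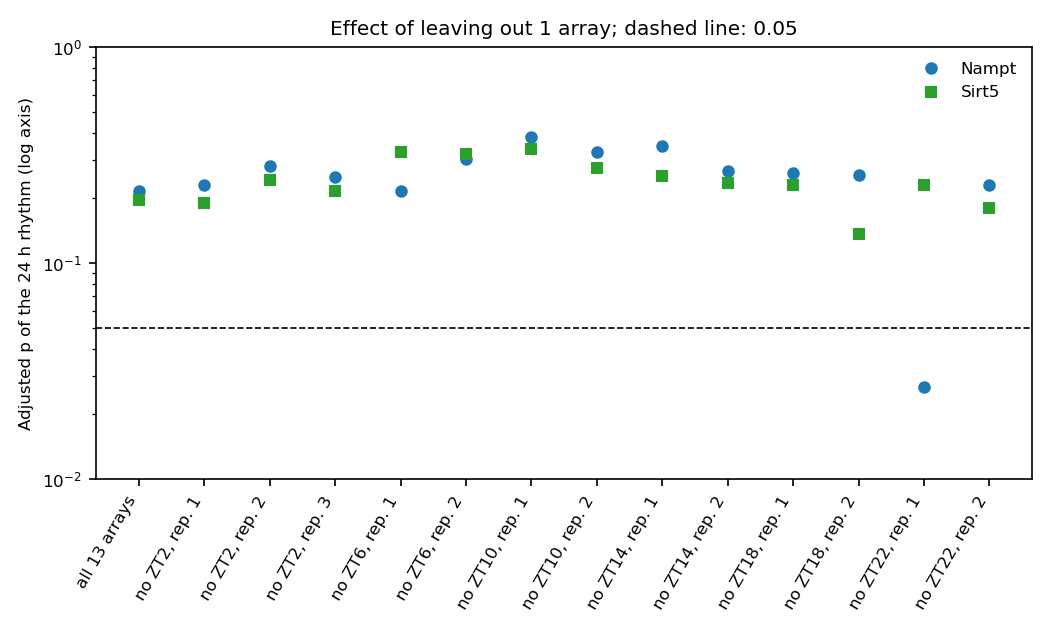
Adjusted p of the 24 h fit (limma, log axis) for Nampt and Sirt5 with all 13 arrays and with each array left out in turn; the dashed line marks 0.05. Only the point of Nampt without the first ZT22 array, at 0.0267, lies below the line.

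No gene of the 7 was called between dark and light, where 3 genes (0.0201%) were over the whole array. Sirt5 had a median of 311 and a range of 289 to 336 in the 6 dark arrays, against a median of 355 and a range of 329 to 371 in the 7 light arrays. The ranges overlapped narrowly, at the ZT18 array of the second day. The difference, dark minus light, was -0.16 ± 0.05 in log2 (SE), with an unadjusted p of 0.00562 and an adjusted p of 0.439 (limma). Sirt5 was the only one of the 7 with an unadjusted p under 0.05, lower in the dark. Of all genes 8.28% lay under that limit, 6.23% lower in the dark and 2.05% higher. None of the 7 had dark and light arrays that did not overlap, against 0.361% of all genes. Nampt differed by -0.03 ± 0.11 (SE), with a mean of 2003 ± 325 in dark arrays (SD, n = 6) and 2042.5 ± 303 in light arrays (SD, n = 7). Its high times, ZT10 and ZT14, lie on either side of lights off. For Nampt, Sirt2 and Sirt6, whose differences were at most 0.03, the sign turned under quantile normalization and when array medians were aligned.

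Between the collection days, no gene of the 7 was called either. Over the 12 arrays of the first 2 days, with time of day as a block, 0 of 7 genes and 0% of all genes were called by limma, and 0 of 7 had an unadjusted p under 0.05, against 6.46% of all genes (966 genes). The widest difference was that of Sirt2, 0.14 ± 0.08 in log2 (SE, second day minus first), with an unadjusted p of 0.106. It averaged 3248 ± 100.01 on the second day and 2969 ± 411 on the first day (SD, n = 6 each), and the first day held both low arrays. Fitted to each day alone, the curve of Nampt had a difference of 0.56 in log2 with a peak at 10.1 h on the second day, and of 0.25 with a peak at 12.965 h on the first day. For Sirt5 the difference was 0.16 with a peak at 8.10 h on the second day, and 0.32 with a peak at 7.44 h on the first day. The test of a day difference in the curve (limma) called 0 of 7 and 0% of all genes, and 0 of 7 lay under 0.05 unadjusted, with an unadjusted p of 0.335 for Nampt and 0.578 for Sirt5 (1912 of all genes, 12.8%, lay under 0.05). A 12 h component on top of the 24 h curve was called in 0 of 7 and in 0% of all genes (limma). Of the 7, 1 lay under 0.05 unadjusted: Sirt3, with an unadjusted p of 0.0438 and an adjusted p of 0.864 (limma), where 5.43% of all genes lay under 0.05 unadjusted (812 genes).

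Among the 7 genes themselves, 21 pairs were compared over the 13 arrays, and 0 had an adjusted p under 0.05. The lowest value was that of Nampt and Sirt6, with Pearson's r of -0.748 (permutation p = 0.00269, adjusted p = 0.0565) and Spearman's rho of -0.654 (permutation p = 0.0178, adjusted p = 0.187). Without the 2 arrays farthest from the median of Nampt, r was -0.614 (permutation p = 0.0437, adjusted p = 0.448). With array medians aligned, r was -0.882 with an adjusted permutation p of 0.00105, so that this pair passed under that scaling. The highest was that of Nampt and Sirt1, with r of 0.716 (permutation p = 0.00774, adjusted p = 0.0813) and rho of 0.764 (permutation p = 0.00315, adjusted p = 0.0661). Without the 2 farthest arrays r was 0.765 (permutation p = 0.00630, adjusted p = 0.132), and with medians aligned 0.678. Both genes were high in the first ZT22 array, at ZT14 and in the second ZT10 array, and low at ZT18. The arrays share times of day, so they are not fully independent points.

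**Figure D4:**
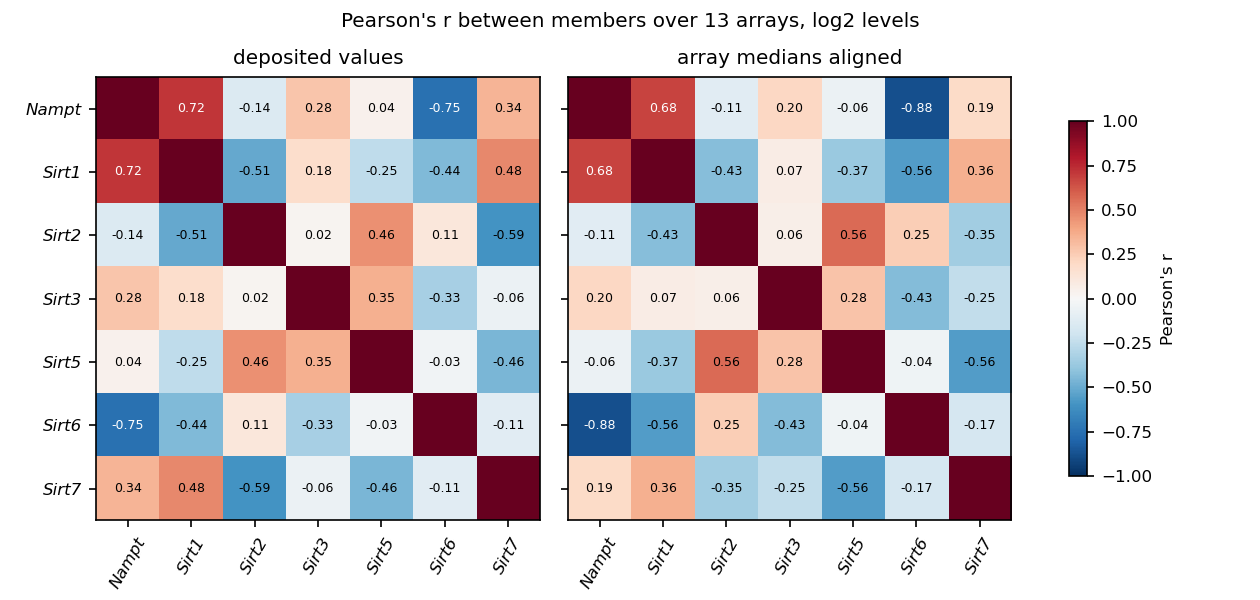
Pearson's r between the log2 levels of the 7 genes over 13 arrays, with the deposited values (left) and with array medians aligned (right); red is positive and blue negative. Nampt and Sirt6 have the lowest value in both panels, -0.75 and -0.88, and Nampt and Sirt1 the highest, 0.72 and 0.68.

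The level of Sirt3 went with that of liver transcripts in the same pools. Of the liver markers Alb, Apoa1, Apoa2, Ttr and Serpina1a, the first 4 were measured, and their summed intensity ran from 7337 to 42397 in dark arrays and from 12260 to 44989 in light arrays, none of them at 0. The 84 relations tested between the 7 genes and 12 marker lists used the mean log2 level of the tested markers of each list. That of Sirt3 with the liver list had Pearson's r of 0.870 (permutation p = 7.0e-05, adjusted p = 0.00588) and Spearman's rho of 0.951 (adjusted permutation p = 0.000840). Without the 2 arrays farthest from the median of Sirt3, which were those of ZT22, r was 0.763 (permutation p = 0.00251, adjusted p = 0.154), and no longer passed after adjustment. No other relation passed. In a fit with the liver level beside the 24 h curve, chosen after seeing the data, Sirt3 rose by 0.15 ± 0.03 in log2 per log2 unit of liver level (SE, adjusted p = 0.0161, limma), as 381 genes (2.55%) did in either direction. In that fit its peak-to-trough difference was 0.14 ± 0.09 (SE), against 0.25 ± 0.13 without it, and that of Nampt was 0.39 in both. The ZT22 arrays, where Sirt3 was lowest, had liver sums of 7337 on the second day and 15640 on the first. The second ZT10 array had a liver sum of 12260, below that of the first ZT22 array. Its Sirt3 intensity was higher, at 543 against 483. The part of the liver transcripts in the Sirt3 values was not tested.

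**Figure D5:**
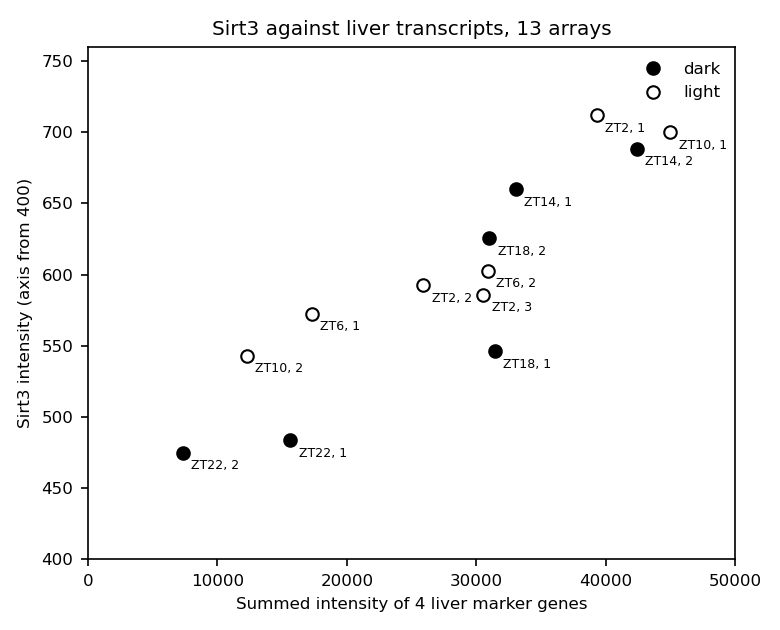
Intensity of Sirt3 against the summed intensity of 4 liver markers in 13 arrays, filled for dark and open for light and labelled with time of day and replicate. Sirt3 runs from 475 in the array with the lowest liver sum, 7337, to 712 at a liver sum of 39329.5.

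The genes most like Sirt3 over the 13 arrays were Gldc (r of 0.960), a glycine-cleaving enzyme of mitochondria, Slc2a2 (0.943), the glucose transporter of hepatocytes, and Upp2 (0.940), a uridine phosphorylase. Sirt2 was most like Zdhhc1 (0.979), Lgals3bp (0.968) and Tmem127 (0.967), and 142 genes had an r over 0.9 with it, against 86 for Sirt3, 8 for Sirt1, 4 for Nampt, 1 for Sirt6 and 0 for Sirt5 and Sirt7. Lgals3bp, a secreted glycoprotein, shared the low arrays of Sirt2, with its lowest values of 1499 among the ZT2 arrays and 1689 among the ZT22 arrays, against 2691 to 3452 in the other arrays. Zdhhc1 and Tmem127 also had their lowest light and dark values on the first day, 1141 and 1179 for Zdhhc1 and 2127 and 2225 for Tmem127. The count of 142 was not repeated without the low arrays of Sirt2. It therefore does not show genes that vary with Sirt2 across the remaining arrays. Nampt was most like Tll1 (0.942), a protease that trims procollagens, Cgrrf1 (0.917), Prss23 (0.914), Uvrag (0.901), a factor of autophagy, Ms4a6b (0.899) and Npy1r (0.897), a receptor of neuropeptide Y. None of these 6 was called rhythmic over all 13 arrays, with fitted peaks between 9.92 and 11.8 h and adjusted p-values from 0.0919 to 0.413 (limma). Sirt1 was most like Slc25a27 (0.946), Zfp354a (0.924) and Id4 (0.915). Sirt5 was most like AI413582 and Dnase2a (0.887 each) and Mettl27 (0.863). Mettl27 was called rhythmic (1.57-fold, highest at 7.57 h, adjusted p = 0.0383, limma), a call that was lost in 13 of 24 alternatives. Sirt6 was most like Fat2 (0.9002), Plxna3 (0.890) and Ift122 (0.887), and Sirt7 like Ubxn2b (0.822), Trmt10c (0.811) and Rarres2 (0.807). These values of r are descriptions over 13 arrays that share time of day and pool, chosen as the highest among all genes.

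The other genes of the NAD salvage pathway did not pass the 24 h test either. Of its 10 genes tested, Nampt included, 0 passed, where 2.13% of all genes did, and 4 had an unadjusted p under 0.05, where 18.5% of all genes did, with a median fold of 1.17 against 1.14 over all genes. Pnp, the purine nucleoside phosphorylase that splits nicotinamide riboside among other nucleosides, came closest (1.31-fold, highest at 13.9 h, adjusted p = 0.0577, limma). Its intensity averaged 1151 ± 34.8 at ZT6 and 1599 ± 72.2 at ZT14 (SD, n = 2 each), and it was called in 3 of 25 alternatives, among them quantile normalization with an adjusted p of 0.0378 (limma). Nmrk2, the muscle-enriched kinase of nicotinamide riboside, was highest at 5.41 h (1.52-fold, adjusted p = 0.164, limma), and Nadsyn1, which makes NAD from its acid form, had a fold of 1.15 (adjusted p = 0.248, limma). Nmrk2 ranged from 147 to 209 in dark arrays and from 196 to 370 in light arrays.

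De novo synthesis of NAD from tryptophan takes place mainly in liver, and its genes varied widely between arrays. Of 7 tested, 0 passed and 1 had an unadjusted p under 0.05, a share near the 18.5% of all genes. This was Ido2, a tryptophan dioxygenase (fold 1.49, adjusted p = 0.269, limma). Tdo2, the liver dioxygenase that opens the pathway, ran from 269 to 2121 in dark arrays and from 347 to 2348 in light arrays (adjusted p = 0.593, limma). Afmid, the formamidase of the pathway, ran from 516 to 1177 in dark arrays and from 541 to 1265 in light arrays (adjusted p = 0.541, limma), and Qprt, which closes the pathway, from 233 to 834 in dark arrays and from 245 to 1002 in light arrays (adjusted p = 0.608, limma). The part of the liver transcripts in these ranges was not tested.

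Among 7 genes of nicotinamide methylation and of NAD phosphorylation, reduction and transport, 0 passed and 1 had an unadjusted p under 0.05, again near the 18.5% of all genes. This was Aox1, an oxidase that clears methylated nicotinamide, which was 1.37-fold higher at its peak, at 8.82 h (adjusted p = 0.182, limma). Nudt12, a peroxisomal hydrolase of NADH, Nadk, the cytosolic NAD kinase, and Nnt, the mitochondrial transhydrogenase, had folds of 1.22, 1.07 and 1.14. Of 16 genes listed with the other NAD-consuming enzymes, 0 passed, against 2.13% of all genes. The list includes Parg and Macrod1, which remove ADP-ribose and do not consume NAD. Of the 16, 2 passed unadjusted, a share below the 18.5% of all genes. These were the ADP-ribosyltransferases Parp11 (1.21-fold, highest at 2.96 h) and Parp8 (1.197-fold, highest at 5.27 h). Parp2, which acts in DNA repair, and Tnks2 had folds of 1.17 and 1.12.

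The zinc-dependent histone deacetylases, which need no NAD, gave 0 of 11 adjusted over all genes (2.13% of all genes passed) and 4 of 11 unadjusted, against 18.5% of all genes. These were Hdac5 (fold 1.22, peak at 9.53 h), Hdac9 (1.22, at 4.02 h), Hdac11 (1.23, at 10.3 h) and Hdac3 (1.16, at 3.08 h), the last a corepressor partner of REV-ERB alpha. Of 20 partners and substrates of sirtuins, 0 passed and 7 did so unadjusted, against the same 18.5%. Tuba1a, a tubulin and so a substrate type of SIRT2, was highest at 23.2 h (1.32-fold, adjusted p = 0.0834, limma), and its adjusted p was 0.0410 without the first ZT22 array. Foxo3, a transcription factor deacetylated by SIRT1, had a fold of 1.1997. Ppargc1a, the coactivator of mitochondrial genes that SIRT1 deacetylates, was highest at 6.64 h (1.39-fold), and Acss2, an acetyl-CoA synthetase, at 21.3 h (1.52-fold). Sirt4, a mitochondrial sirtuin of this list, had a fold of 1.09 (adjusted p = 0.469, limma).

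Of the arrays as a whole, pairs correlated at 0.886 to 0.992 across genes, and 0 pairs were identical. Markers of keratinocytes, fibroblasts, adipocytes and skeletal muscle were all above 0 in every array (5 of 6, 6 of 6, 6 of 6 and 7 of 7 markers measured). The same held for every other marker list, liver included, and genes left out as dim also read above 0. A marker above 0 therefore does not show that its cell type was present. Markers of the growing hair shaft (6 of 7 measured, none at 0) summed to 4521 to 43365 in dark arrays and to 3822 to 6453 in light arrays, and were highest in the second ZT22 array, where Nampt and Sirt3 were lowest. The part of that array's hair genes in their values was not tested.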

How the data were processed

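Total RNA of whole skin was hybridised to 1 Affymetrix whole-transcript array per pool of 3 mice, per the labels' protocols. The authors deposited 1 intensity per probe set and array on a linear scale. Per the submitters' processing notes, the tools were Affymetrix Expression Console 1.1.1 together with PLIER 2.0, while the normalization across arrays is, like the genome build, not given in the sources used here. For 35557 probe sets the platform annotation gave a single gene for 21789, more than 1 for 1621 and none for 12147. Gene identifiers of 21698 matched the reference gene table.

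Intensities were transformed to log2(intensity + 16), a scale that understates the fold of dim genes, and the dimmest 25% of genes were left out. Tests used R 4.3.3 and limma 3.58.1 (lmFit, eBayes, Benjamini-Hochberg adjustment over 14953 genes, threshold 0.05), with an F test on a 24 h cosine and sine over 13 arrays (10 residual degrees of freedom) and SEs by the delta method, and were tested on simulated data. Correlations used 100000 two-sided permutations of the arrays. The number of arrays limits the precision. Replicates are separate pools at the same time of day, numbered by collection day from the hours in the labels. Of 15 pairs of times on 1 day, 6 deviated together with a correlation over 0.1 (range -0.665 to 0.516).

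The 7 genes and the lists were chosen with earlier results of these data known. Named genes are all 7, from each pathway list the 4 with the smallest p in the 24 h test and every gene past the threshold, and the 6 genes most like Nampt and 3 most like each sirtuin. Sirt4, the values of Lgals3bp by array and the lowest values of Zdhhc1 and Tmem127 were chosen after values were seen. Alternatives covered the offset, filter, normalization, probe set choice, variance prior, day block and leaving out each array.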

Additional observations from a re-analysis of the deposited data

Results flagged for a closer look

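In 28 groups of dark, light, first-day and second-day arrays of the 7 genes, 2 held an array far from the others, both for Sirt2. Chance alone would give about 1 in 20 such groups. In the 6 dark arrays, the ZT22 array of the first day had a Sirt2 intensity of 2510.8, against a median of 3132. In the 7 light arrays, the ZT2 array of the first day had 2430.22, against a median of 3183.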

How the results depend on the processing

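Under 25 alternatives to the 24 h fit, 0 to 1 of the 7 genes were called. The 1, Nampt, came without replicate 1 of ZT22, and without replicate 1 of ZT2 and of ZT22 together, so leaving out 1 array gave a range of 0 to 1. The number of genes called, 318, was 211 with collection day as a replicate block, 44 with time of day as free levels and 773 without the first arrays of ZT2 and ZT22, and ranged from 126 to 414 with 1 array left out. With the day block 0 of the 7 were called in the 24 h fit, between dark and light or for a 12 h component. Between dark and light the 3 genes called became 1 with the dimmest 50% left out, 36 without those 2 arrays, and 1 to 16 with 1 array left out. The 12 h component had 0 calls, and 0 to 197 with 1 array left out, the highest without the first ZT10 array. Of pairs of the 7 genes, 1 (Nampt and Sirt6) passed with array medians aligned. The values that follow are log2 differences that passed in no setting and turned sign. Under quantile normalization, dark minus light was 0.00576 for Nampt, 0.00820 for Sirt2 and 0.0147 for Sirt6, and second day minus first was -0.0134 for Sirt5. With medians aligned, dark minus light was 0.00699 for Nampt, 0.0175 for Sirt2 and 0.0106 for Sirt6, and second day minus first was 0.00173 for Sirt7. With the day block, dark minus light was -0.00964 for Sirt1. Without 1 array, or without 2 for the lowest value of Nampt, dark minus light ranged from -0.0932 to 0.0292 for Nampt, from -0.00964 to 0.0675 for Sirt1, from -0.0803 to 0.0366 for Sirt2 and from -0.0662 to 0.00590 for Sirt6. Without 1 pair, second day minus first ranged from -0.102 to 0.00795 for Sirt3, from -0.00587 to 0.0231 for Sirt5 and from -0.0351 to 0.0111 for Sirt7, and without the pairs of ZT2 and ZT22 it was 0.0257 for Sirt1 and 0.0126 for Sirt7. The causes were not tested. Sirt5 was not tested with the dimmest 50% left out.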
